A study of Caenorhabditis elegans with 2 samples.

Results

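The regions described here are 584 PHA-4 ChIP-seq regions whose summits lay in exons of protein-coding genes of the nematode Caenorhabditis elegans, away from annotated gene starts. They were chosen by the authors' signal value: all nuclear regions of the list called on both replicates together were ranked by it, and the first 6000 of 24890 were kept. A region counted as exonic when its summit fell in coding or untranslated exon sequence and lay in no promoter window, taken as 1000 bp upstream to 200 bp downstream of any protein-coding transcript 5' end. They made up 9.73% of the 6000. The others were 3131 promoter, 1163 intergenic and 998 intronic regions, and 124 in non-coding genes. Below rank 6000 the same rule gave 3817 lower-ranked exonic regions, the group against which sequence and position were compared. Since signal chose the regions, their signal, q values and replicate support are given as description, with no test.

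The animals were whole young adults of strain OP37, pooled male and female, of exact age unknown. The strain carries unc-119(ed3) on III and the transgene wgIs37, which makes an eGFP-PHA-4 fusion; both replicates share these alleles. ChIP-seq recovers DNA bound by the tagged protein and reports where reads pile up. There were 2 biological replicates of the 1 genotype and stage, and no second condition. Region lists give no read depth, so it is unknown here, and no library from untagged animals was analysed here. The lists of the 2 replicates differed in strength before any annotation was added: the replicate 1 list held 0 nuclear regions with a q value of at most 0.05 and a lowest q of 0.163, whereas the replicate 2 list held 7548. Values from each replicate's list alone are therefore given beside the main comparisons; the tests by exon type and against a window in the same regions were made on the pooled list only. The p-values treat regions as the counted units within a list and do not measure the spread between cultures of worms.

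PHA-4 is a forkhead transcription factor of the FoxA family. It specifies the pharynx, the feeding organ, in the embryo, and acts later in the intestine and elsewhere, including in the response to reduced feeding. Forkhead proteins bind short A- and T-rich sites, most often in promoters, introns and intergenic DNA. Coding exons are constrained by the protein they encode. Splice acceptors end the introns before them, and poly(A) signals lie near the 3' ends of genes.

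The stretches below are those that differed in frequency between top-ranked and lower-ranked exonic regions, shown in the strongest holders for which sequence was drawn. All are 30 bases of the plus strand of ce11 (the WBcel235 reference). Capitals mark a GATA-type 6-mer, CTTATC or its reverse complement GATAAG, in the first 6, a forkhead core, TGTTTAC or its reverse complement GTAAACA, in the next 5, and a GAGA repeat, GAGAGAG or its reverse complement CTCTCTC, in the last 3.
F26F12.3, chrV:5843657-5843686, 5' untranslated: gaaaagttattgCTTATCgggaggagagtc
hpo-34, chrX:11515595-11515624, coding: ttgtgatgacggCTTATCggctctttatcg
F59F4.3, chrX:15842767-15842796, coding: gagtttgcaattGATAAGgcaaggtgattg
pks-1, chrX:5429520-5429549, coding: ttccactctaacCTTATCcaagagactcat
kqt-2, chrX:8243269-8243298, 3' untranslated: taaaagggaataGATAAGaaataaatgaca
sid-5, chrX:6905753-6905782, 3' untranslated: tgtgattctcaaCTTATCaggatgatgtaa
oac-57, chrIV:12306218-12306247, coding: gaattgcgtcttTGTTTACtagaaagttac
F35G2.1, chrIV:12208090-12208119, 3' untranslated: cgaatttcggaaTGTTTACccacacttttg
ZK673.1, chrII:10445308-10445337, 3' untranslated: tatttgtgtgagTGTTTACaagaaaaattt
R08E3.3, chrX:4819118-4819147, coding: ccgtttctctagGTAAACActaatcttcac
mdh-2, chrIII:6606644-6606673, 3' untranslated: ctgcggtaaaatGTAAACAatcgaacgggc
F07C3.16, chrV:9255638-9255667, 3' untranslated: gggaaaaggttcGAGAGAGtgtgatcttga
sid-5, chrX:6905796-6905825, 3' untranslated: tacccgttttttCTCTCTCctgtcaataaa
W02A2.5, chrIV:13346266-13346295, 3' untranslated: ctccgagacacaCTCTCTCtacttataatc
The GATA-type 6-mer of the F26F12.3 region lay 69 bp from the summit, that of hpo-34 54 bp and that of F59F4.3 43 bp. The forkhead core of the oac-57 region lay 14 bp from its summit and that of mdh-2 15 bp. The GAGA repeat of the W02A2.5 region lay 27 bp from its summit. The sid-5 region held both a GATA-type 6-mer and a GAGA repeat within 53 bp of the summit.

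A second set of stretches shows the DNA right at the summits, 30 bases centred on each, for the 6 strongest regions for which sequence was drawn, with any forkhead consensus in capitals.
F19H6.6, chrX:12363096-12363125, 3' untranslated: actttaACAAATAaactgtaaaaaaaaatc
C34C12.2, chrIII:3456391-3456420, 5' untranslated: attaccgtcacggtgtctgcagactttttg
F17C11.22, chrV:10968113-10968142, coding: attgagaggcTATTGACatcactatcttga
F26F12.3, chrV:5843588-5843617, 5' untranslated: acaactcctgacaccaccagtcaccccctc
hpo-34, chrX:11515541-11515570, coding: aagtcgttagagtgacgcgtctcttctaca
M01H9.3, chrIV:4468545-4468574, 3' untranslated: cggtggtgggaagcgggaaagtttttcagt
Of these 6, F19H6.6 and F17C11.22 held a forkhead consensus in the window, and the other 4 did not. The windows drawn for the next 6, from F21C10.9 to F25B5.5, held none either. The consensus searched was T, then A or G, then T, T, then G or T, then A or G, then C or T, read on both strands.

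The strongest exonic region lay over the last exon of F19H6.6, annotated by RefSeq as an uncharacterized protein. Its pooled signal was 99.4, rank 24, and its signal was 8.34 in the replicate 1 list (rank 3552) and 94.8 in the replicate 2 list (rank 24). The summit stood 16 bp before the annotated end of the gene. C34C12.2, which encodes a fibronectin type-III domain protein, came next with a pooled signal of 96.3, 4.67 in replicate 1 (rank 22748) and 94.1 in replicate 2 (rank 27). Both ranked high in the replicate 2 list, and in replicate 1 neither was among the first 3000. T28F4.4, a Pumilio-homology domain gene, had 84.3 pooled, 9.28 in replicate 1 and 92.6 in replicate 2. F17C11.22, whose RefSeq entry gives no product, had 73.2 pooled, 13.4 in replicate 1 (rank 251) and 57.1 in replicate 2 (rank 199). The region of F26F12.3, an IBR domain gene, had 69.5 pooled, 9.98 in replicate 1 and 57.8 in replicate 2. Unlike the first 2, F17C11.22 was within the first 300 of each replicate's own list.

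The next strong regions lay in hpo-34 (pooled signal 60.8), M01H9.3 (58.4), F21C10.9 (55.1), F07C3.16 (54.6) and dos-3 (54.5), a gene for a Delta and OSM-11-like protein. M01H9.3, uncharacterized, had the highest replicate 1 standing of the 20 strongest, with 15.5 in replicate 1 (rank 71) and 44.6 in replicate 2 (rank 498). The gene adh-1, for an alcohol dehydrogenase, had a pooled signal of 54.3, with 7.72 in replicate 1 and 49.8 in replicate 2. F59F4.3, F25B5.5, stdh-1, C17C3.1 and par-5 followed, at 53.7, 53.7, 52.5, 52.01 and 51.9. The gene stdh-1 encodes a putative steroid dehydrogenase and par-5 a 14-3-3 protein. The last of the 20 were let-526 (51.3), an ARID domain gene, nuaf-1 (50.9), whose product is annotated as a mitochondrial complex I intermediate-associated protein, F19B2.5 (49.8), with an SNF2 domain, and F57B1.6 (49.1). Of the 20, 6 had no overlapping region in the replicate 1 list, namely F21C10.9, F07C3.16, F25B5.5, stdh-1, let-526 and F57B1.6. All 20 overlapped a region of the replicate 2 list.

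Exonic regions were sparse at the head of the ranking and common further down. They were 4.41% of ranks 1 to 839 (95% exact binomial interval 3.12 to 6.03), 5.17% of ranks 840 to 2000, 8.80% of ranks 2001 to 3000 and 15.1% of ranks 5001 to 6000 (12.9 to 17.5). Past rank 18000 they reached 22.1%, close to the 21.6% of the nuclear genome that is exonic and outside promoter windows. Their median pooled signal was 22.5, against 26.5 for promoter, 24.8 for intronic and 25.6 for intergenic regions of the 6000. A q value of at most 0.05 was held by 314 of the 584, or 53.8%, beside 67.8% of all 6000. Of the 839 regions in the authors' optimal list, which passed their test of reproducibility, 37 were exonic in this sense. The last regions inside rank 6000 were in dhhc-7 (signal 18.4483) and R02E12.5 (18.446), and the first outside were in myrf-2 (18.4367) and F11D5.7 (18.4154), so the limit fell in a continuous run of values.

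**Figure D1:**
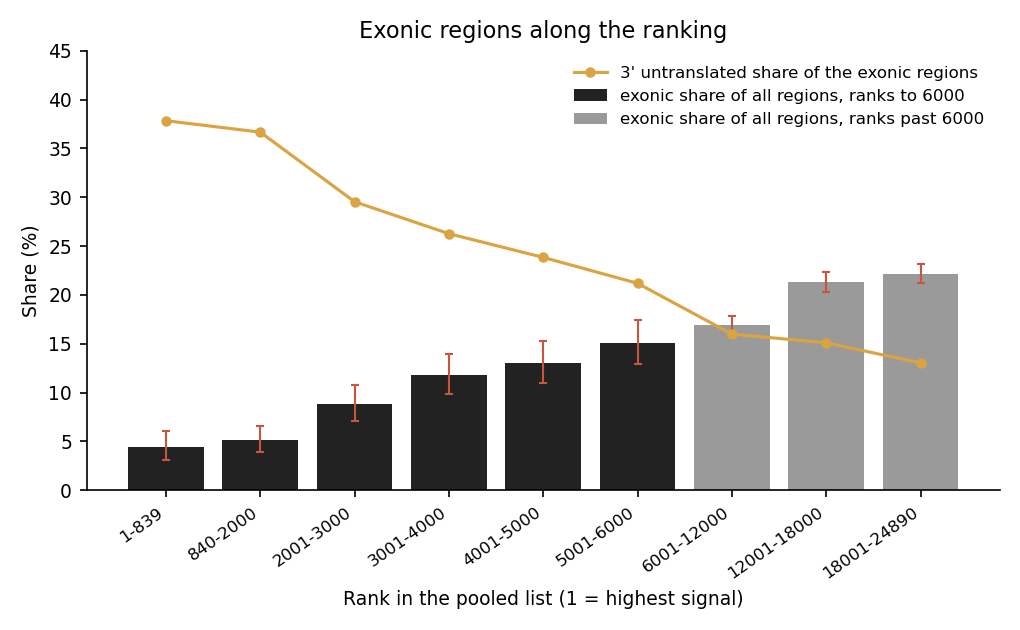
Bars show exonic regions as a percentage of all regions in each range of ranks of the pooled list, with 95% exact binomial intervals; the line shows the 3' untranslated share of those exonic regions. The exonic share was 4.41% at ranks 1 to 839 and 22.1% past rank 18000, while the 3' untranslated share was 37.8% in the first range and 13.04% in the last.

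Most of the support for these regions came from replicate 2. A region of the replicate 2 list overlapped 577 of the 584 (98.8%), and a region of the replicate 1 list overlapped 385 (65.9%); 378 were overlapped in both and 0 in neither. The replicate 1 overlap was 61.0% for promoter, 62.8% for intronic and 59.4% for intergenic regions of the 6000. The replicate 2 overlap was near complete there too, at 99.2%, 98.998% and 99.4%. Among exonic regions, the overlapping regions had a median signal of 6.94 in replicate 1 and 18.02 in replicate 2. Both overlapping regions ranked in the first 6000 of their own list for 92 exonic regions (15.8%), beside 22.5% of promoter regions. Within the first 3000 of the pooled list, that share was 32.4% of 185 exonic and 32.6% of 1691 promoter regions. In the rest of the 6000 it was 8.02% of 399 exonic and 10.7% of 1440 promoter regions. The gap over the 6000 therefore cannot be read apart from pooled rank. When the same rule was applied to each replicate's list, the first 6000 of replicate 1 held 1245 exonic regions (20.8%), of which 12.2% overlapped one of the 584. The first 6000 of replicate 2 held 504 (8.40%), of which 68.3% did. The pooled list contains both replicates' reads, so these overlaps are not independent evidence.

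A few regions stood high in each replicate's own list; those named here were picked after their values were seen, by the poorer of their 2 replicate ranks. F17C11.22 came first. Next was pks-1, a fatty acid synthase-like gene whose region lay in coding exon 22 of 31 (chrX:5429396-5429735), with a signal of 14.6 in replicate 1 (rank 130) and 48.8 in replicate 2 (rank 364). After them came nmad-1, M01H9.3, Y82E9BR.3 and hpo-34. Y82E9BR.3, annotated as an ATP synthase c subunit, had 12.4 in replicate 1 (rank 444) and 44.1 in replicate 2 (rank 517). The region in 3' untranslated exon of nmad-1, a gene annotated as a DNA adenine demethylase, had ranks 329 and 478 in replicates 1 and 2 but rank 4382 in the pooled list, at 21.4; an overlap of 1 bp suffices, so the overlapping replicate region can have its own summit elsewhere. At the other end, 7 regions had no overlapping region in the replicate 2 list. Of these, pot-3, a telomere-binding protein gene, had 17.97 in replicate 1 (rank 23), vha-13, the catalytic subunit of the vacuolar ATPase, 14.005 (rank 186), and mcm-6, a replication licensing factor gene, 10.5 (rank 1191). All 7 but C05D9.7 and C01G6.3 had a pooled q value above 0.05.

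**Figure D2:**
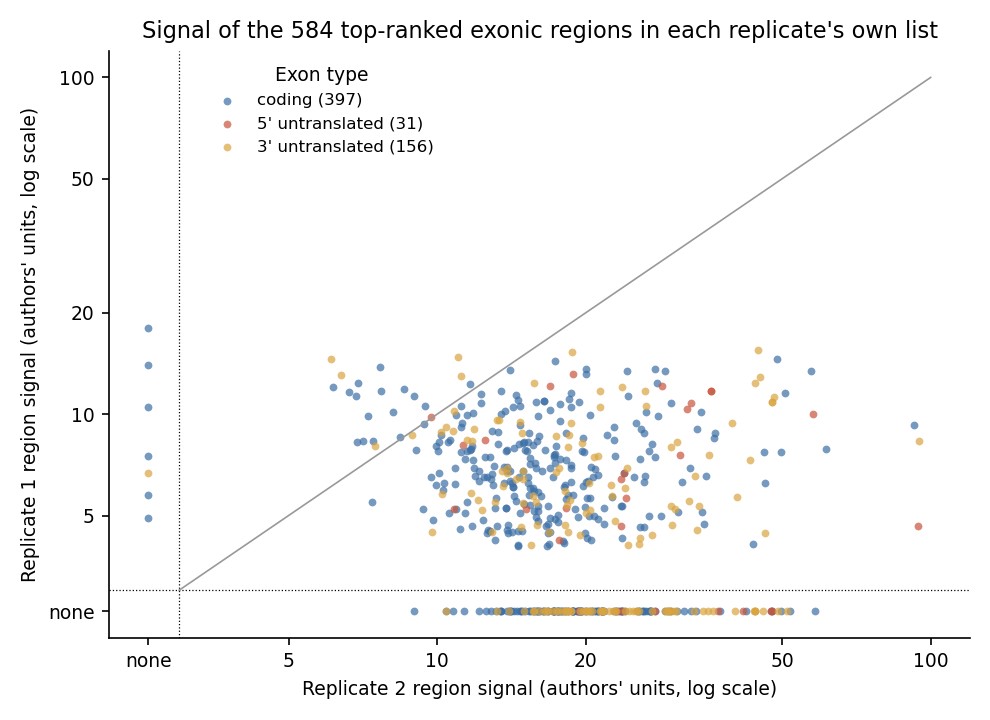
Each point is 1 of the 584 exonic regions, placed by the signal of the overlapping region in the replicate 2 list (x axis) and the replicate 1 list (y axis), on log scales and in the authors' units; points marked none had no overlapping region, colours give the exon type and the grey line is equality. Most points lie below the line, with a median of 6.94 in replicate 1 and 18.02 in replicate 2. The scaling of the signal is not stated, so the axes need not share a unit.

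Untranslated exons were held more often by top-ranked than by lower-ranked exonic regions. The summit lay in a coding exon in 397 of 584 (68.0%), against 84.4% of the 3817 lower-ranked ones (odds ratio 0.39, exact adjusted p = 4.69e-19). In 3' untranslated exon lay 156 (26.7%), against 14.5% (odds ratio 2.15, exact adjusted p = 3.20e-12), and in 5' untranslated exon 31 (5.31%), against 1.10% (odds ratio 5.04, adjusted p = 5.03e-10). These are two-sided Fisher's exact tests with Benjamini-Hochberg adjustment over the 3 types. Of the exonic base pairs outside promoter windows, 87.9% were coding, 10.9% were 3' untranslated and 1.26% were 5' untranslated. Lower-ranked regions stood nearer to that make-up than top-ranked ones in all 3 types. By the replicate 2 list alone the 3' untranslated share was 27.8%, against 16.3% (exact adjusted p = 1.47e-09). By the replicate 1 list alone it was 11.2%, against 10.2%, and the difference did not pass (exact adjusted p = 0.459).

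**Figure D3:**
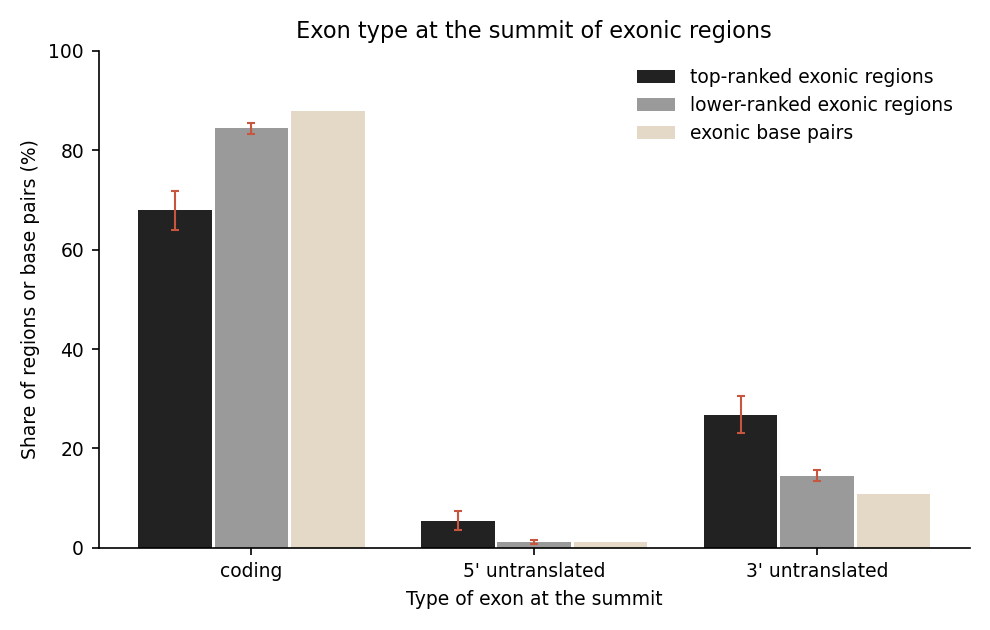
Share of top-ranked exonic regions (584), lower-ranked exonic regions (3817) and exonic base pairs by the type of exon at the summit; error bars are 95% exact binomial intervals, and base pairs have none. The 3' untranslated share was 26.7% in top-ranked regions and 14.5% in lower-ranked ones.

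Within genes, the regions tended toward the ends. The last exon held 243 of them (41.6%), against 26.7% of lower-ranked exonic regions, and internal exons held 302 (51.7%), against 69.8%; these position counts follow in part from the exon types above and were not tested apart. For the 156 in 3' untranslated exons, the summit stood a median of 120.5 bp before the gene's annotated 3' end (quartiles 52 and 293), against 191.5 bp (79 and 392) for lower-ranked ones. The exons of the 31 in 5' untranslated exon had a median length of 1244 bp, against 927 bp for lower-ranked ones, and 27 (87.1%) were first exons, against 37 of 42 (88.1%). The promoter window in the rule leaves only untranslated sequence far from a 5' end. F26F12.3 and C34C12.2 are of this kind, with exons of 3008 and 2829 bp. Among the 397 coding regions the exon had a median length of 285 bp, against 302 bp for lower-ranked coding regions, and the exon edge lay a median of 60 bp away, against 65 bp. The nearest protein-coding 5' end, in either direction, was a median of 1200 bp from the summit, against 1377 bp, and 146 regions lay over 2000 bp from any. The median pooled signal was 24.3 for 5' untranslated, 23.7 for 3' untranslated and 22.1 for coding regions of the 584. A median of 82.1% of a region's 340 bp was exonic, against 82.6%, so most regions also covered some intron or intergenic sequence.

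Forkhead sites, GATA sites and GAGA repeats were more frequent within 100 bp of the summit in top-ranked exonic regions than in lower-ranked ones, and splice acceptors were less frequent. The forkhead consensus was found in 293 of 584 (50.2%), against 42.8% (odds ratio 1.35, exact adjusted p = 0.00429), and the stricter forkhead core TGTTTAC in 22 (3.77%), against 1.62% (odds ratio 2.37, adjusted p = 0.00437). The core is one form of the consensus, so these are not separate. TGATAA, the site read by GATA factors such as those of the intestine, was found in 135 (23.1%), against 18.2% (odds ratio 1.36, exact adjusted p = 0.0116). GAGAGAG was found in 30 (5.14%), against 2.52% (odds ratio 2.10, exact adjusted p = 0.00429). The splice acceptor TTTTCAG, the end of worm introns, was found in 85 (14.6%), against 20.5% (odds ratio 0.66, exact adjusted p = 0.00429). All p-values are from two-sided Fisher's exact tests adjusted over 11 motifs, each read on both strands. The motifs were chosen with earlier results of these data known. The motif p-values here and against other classes are therefore not those of a list fixed beforehand. The other 6 did not pass: CGTCTC, the E-box CACGTG, the homeodomain site TAATTA, the poly(A) signal AATAAA, the TATA box TATAAA and GCGCGC, with exact adjusted p from 0.147 to 0.523.

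The calls depended on which list was read. In the replicate 2 list alone, the forkhead consensus was in 51.6%, against 44.6% (exact adjusted p = 0.0110), the core in 4.37%, against 1.87% (adjusted p = 0.00452), the GATA site in 25.6%, against 18.2% (adjusted p = 0.00109), and GAGA repeats in 4.56%, against 2.39% (adjusted p = 0.0198). The poly(A) signal AATAAA, which did not pass in the pooled list, passed there at 35.7%, against 30.4% (exact adjusted p = 0.0330). The splice acceptor did not pass there, at 18.8%, against 20.6% (exact adjusted p = 0.603). In the replicate 1 list alone, 0 of the 11 motifs passed (1 had an unadjusted exact p below 0.05), and the forkhead consensus stood at 42.2%, against 43.3% (adjusted p = 0.798), and the core at 2.01%, against 1.48% (adjusted p = 0.725). With exon type as a covariate in a binomial logistic regression, added after seeing the data, the GAGA repeat no longer passed (adjusted p = 0.0607), and the other 4 did. Limited to the 314 regions with q of at most 0.05, the forkhead consensus stood at 48.1% (exact adjusted p = 0.166) and the core at 3.50% (adjusted p = 0.0649), so neither passed. The core also missed with the top 3000 regions (exact adjusted p = 0.241). The GATA site missed with 1 region per host gene (22.5%, against 18.6%; exact adjusted p = 0.0830), and the GAGA repeat with the promoter window widened to 2000 bp upstream and 500 bp downstream (3.58%, against 2.41%; exact adjusted p = 0.269). With a window of 50 bp the core, the GATA site and the splice acceptor missed. Another comparison set the summit window against a window 500 bp away in the same regions: the splice acceptor, at 14.6%, against 24.3%, was the one motif that passed (exact McNemar test, adjusted p = 0.000408), while the forkhead consensus stood at 50.2%, against 48.1% (adjusted p = 0.635). The rule put each summit in exon, whereas the window 500 bp away could lie in intron or between genes. The paired test therefore also compares exon with other sequence, and cannot tell that apart from a difference at the summit.

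Within single exon types, 2 of the 33 pairs of motif and exon type passed, both in coding regions. Among coding regions the forkhead consensus was in 48.9% of the top-ranked, against 40.6% of the lower-ranked (exact adjusted p = 0.0341), and the core in 3.78%, against 1.37% (adjusted p = 0.0341). Among 3' untranslated regions the consensus was in 55.8%, against 55.4%. In 5' untranslated regions GAGA repeats were in 9 of 31 (29.0%), against 2 of 42 (4.76%), with an exact adjusted p of 0.0729 that missed the threshold. These are Fisher's exact tests adjusted over all 33 pairs of motif and exon type. Whether the coding and untranslated regions differ from each other in this was not tested.

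**Figure D4:**
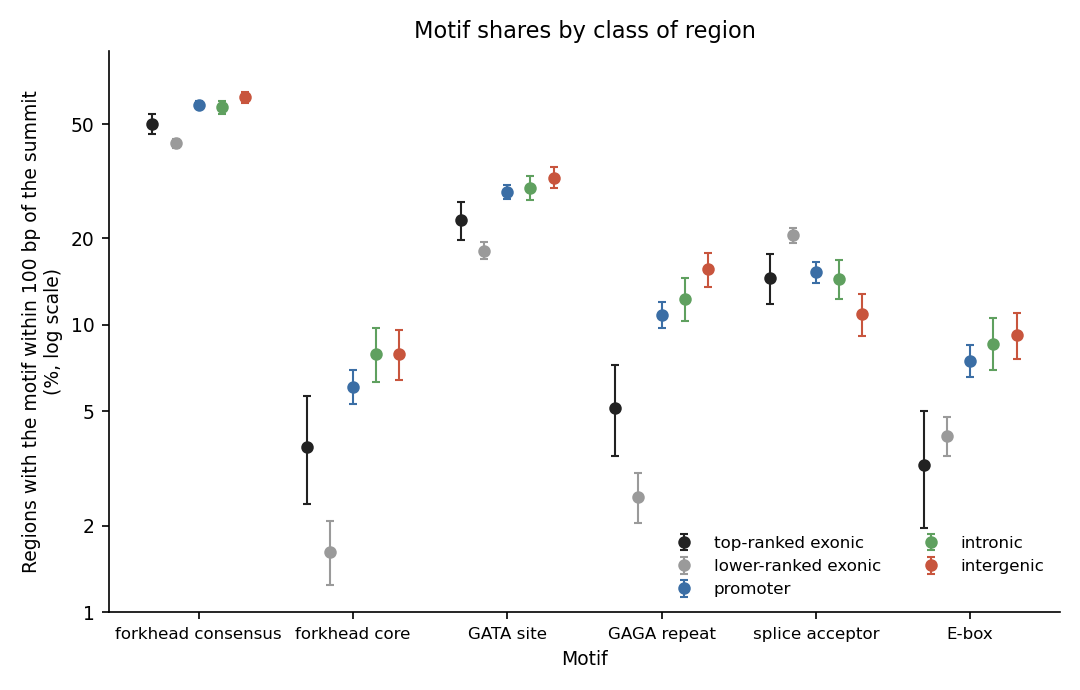
Percentage of regions with each motif within 100 bp of the summit (log scale) in top-ranked exonic, lower-ranked exonic, promoter, intronic and intergenic regions; bars are 95% exact binomial intervals. Top-ranked exonic regions sit between the lower-ranked exonic regions and the other classes for the forkhead, GATA and GAGA motifs, at 50.2%, 23.1% and 5.14% for the consensus, the GATA site and the GAGA repeat.

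Compared with the other classes of the 6000, the exonic regions held fewer of these sites. The forkhead consensus was in 50.2% of exonic regions, against 58.4% of promoter (exact adjusted p = 0.000614), 57.3% of intronic (0.0107) and 62.0% of intergenic regions (1.56e-05). GATA sites were in 23.1%, against 29.1%, 30.1% and 32.6% of promoter, intronic and intergenic regions (exact adjusted p = 0.00566, 0.00566 and 0.000124). GAGA repeats were in 5.14%, against 10.9%, 12.3% and 15.6%, and the E-box in 3.25%, against 7.51%, 8.62% and 9.20%; all 6 of these differences passed. CGTCTC was in 9.59% of exonic regions, against 17.9% of promoter, 13.9% of intronic and 17.02% of intergenic ones, and passed against each. The run GCGCGC was in 4 exonic regions (0.685%), against 6.36% of promoter regions (exact adjusted p = 9.99e-10). Of 33 pairs of motif and class tested by Fisher's exact test, 24 passed; exonic regions were lower in 23 of them. The exception was the splice acceptor, in 14.6% of exonic and 10.9% of intergenic regions (exact adjusted p = 0.0410). Intergenic summits lie outside gene bodies by the class definition, and introns lie inside them, so this pair cannot be read apart from the classes. By the replicate 2 list alone 26 of the 33 passed. By the replicate 1 list alone 20 did, and several of the sites above were not among them. There the E-box stood at 5.14% of exonic regions, against 4.22% of promoter, 4.38% of intronic and 4.95% of intergenic ones, the opposite direction, and passed against no class (exact adjusted p from 0.2995 to 0.908). The GATA site stood at 18.7%, against 21.5%, 18.8% and 19.8%, and also passed against no class (exact adjusted p from 0.0821 to 1). The consensus did not pass against intronic regions, nor CGTCTC against intronic or intergenic ones. In the pooled list, the GATA site difference from promoter regions missed with the top 3000 (28.1%, against 27.6%; exact adjusted p = 0.918), with q of at most 0.05 (exact adjusted p = 0.2603) and with the wider promoter window (exact adjusted p = 0.113). With the top 3000, 13 of the 33 passed; the consensus against promoter and intronic regions, the GATA site against all 3 classes and the E-box against promoter regions did not.

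A search over all 6-mers, each counted with its reverse complement, found 6 that passed between top-ranked and lower-ranked exonic regions, which is 0.288% of those tested. The clearest was the GATA-type CTTATC, in 95 of 584 regions (16.3%), against 295 of 3817 (7.73%; odds ratio 2.32, exact adjusted p = 1.18e-06). AACAAA was in 36.0%, against 26.96% (exact adjusted p = 0.0109), and TAAACA, which lies inside the forkhead core, in 14.7%, against 9.22% (adjusted p = 0.0298). AGAGTG was in 11.1%, against 6.29% (exact adjusted p = 0.0266), and AAAGAG in 21.4%, against 14.8% (adjusted p = 0.0298). CTGCAA was less frequent, in 7.71%, against 13.5% (exact adjusted p = 0.0266). All are Fisher's exact tests adjusted over all 6-mers. Against the window 500 bp away in the same regions, CTTATC passed (16.3%, against 7.53%; exact McNemar test, adjusted p = 0.0121) and none of the other 5 did (adjusted p from 0.400 to 0.976). That window did not have to lie in exon, as the summit did. In the replicate 2 list alone, CTTATC was in 16.3%, against 8.49% (exact adjusted p = 0.000217). AGAGTG (11.5%, against 6.50%; exact adjusted p = 0.0228) and TAAACA (17.7%, against 10.2%; adjusted p = 0.00185) also passed there. AACAAA (34.9%, against 28.0%; exact adjusted p = 0.175) and AAAGAG (19.8%, against 14.8%; adjusted p = 0.318) did not. Nor did CTGCAA, at 12.5%, against 13.4%. In the replicate 1 list alone 0 passed, with 133 below an unadjusted exact p of 0.05, and CTTATC was in 8.51%, against 8.68%.

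Split by exon type, CTTATC was in 16.9% of top-ranked coding regions, against 7.73% of lower-ranked coding ones. In 5' untranslated exons it was in 10 of 31 (32.3%), against 5 of 42 (11.9%), and in 3' untranslated exons in 11.5%, against 7.40%. It was also present in 18.5% of promoter, 19.7% of intronic and 22.2% of intergenic regions of the 6000. This 6-mer was singled out after its values were seen, so these splits carry no test. Along the region, its share per 100 bp was 8.05% in the summit bin, against 4.40% in lower-ranked exonic regions. In the bin centred 100 bp to the left it was 7.19%, against 3.69%, and in that 100 bp to the right 8.05%, against 4.06%. By 200 bp to the right it was 4.79%, against 4.51%. The other bins were uneven. The share was 5.48%, against 4.11%, at 200 bp to the left and 6.16%, against 3.67%, at 500 bp to the right. At 400 bp to the left it was 3.25%, against 4.03%, and at 400 bp to the right 3.94%, against 4.01%. The forkhead consensus was at 30.1% in the summit bin, against 24.99%. It was at 30.8%, against 26.1%, 100 bp to the left and 31.0%, against 26.6%, 100 bp to the right. In the bin 200 bp to the left it was at 26.7%, against 27.2%.

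**Figure D5:**
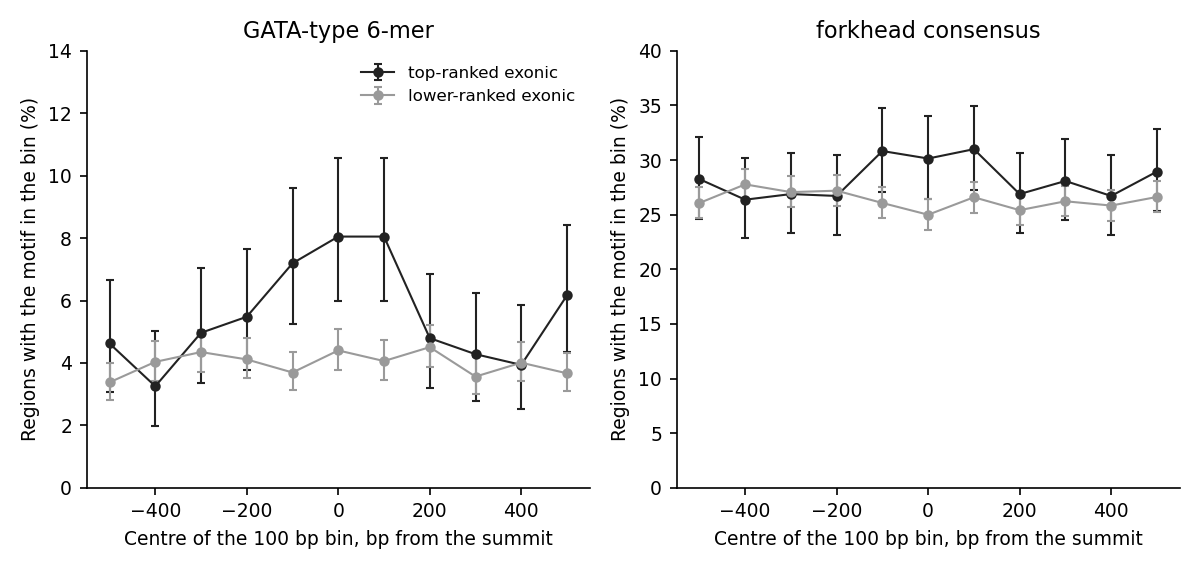
Percentage of regions with the GATA-type 6-mer (left) and the forkhead consensus (right) in each 100 bp bin by distance from the summit along the plus strand, for top-ranked and lower-ranked exonic regions, with 95% exact binomial intervals. The 6-mer stands at 8.05% of top-ranked and 4.40% of lower-ranked regions in the summit bin.

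Mean GC content within 100 bp of the summit was 38.8% ± 6.08 (SD, n = 584 regions), against 39.2% ± 6.27 in lower-ranked ones (SD, n = 3817), a difference that did not pass (two-sided permutation test, p = 0.0816). By exon type the means were 40.4%, against 40.3%, in coding exon, 34.0%, against 33.2%, in 3' untranslated exon, and 41.2%, against 37.6%, in 5' untranslated exon. The replicate lists gave opposite signs, 38.2%, against 39.0%, in replicate 2 (permutation p = 0.00966) and 40.1%, against 39.7%, in replicate 1 (permutation p = 0.0123). Repeated sequence, at least 50% of the 31-mers around the summit found more than once in the genome, occurred in 0 of 584, against 9 of 3817 (0.236%). An annotated 5' end of a non-coding gene lay within 200 bp of the summit in 22 (3.77%), against 2.67% (Fisher's exact test, p = 0.140). In replicate 2 alone the shares were 3.37%, against 2.75% (exact p = 0.395), and in replicate 1 alone 3.29%, against 2.48% (exact p = 0.118). Of those 22, 9 were unclassified ncRNA, 5 piRNA, 3 snoRNA, 2 antisense RNA, 2 tRNA and 1 a pseudogene.

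By chromosome, the regions were spread over all 6, with 120 on V, 111 on III, 110 on X, 89 on II, 87 on IV and 67 on I. Chromosome I held 11.5% of them, against 16.7% of lower-ranked exonic regions (Fisher's exact test, adjusted p = 0.00630 over the 6 chromosomes), and the others did not pass. That difference did not pass in the replicate 2 list alone (12.9%, against 16.3%; exact adjusted p = 0.143) nor in the replicate 1 list alone (18.3%, against 16.3%; adjusted p = 0.168). The nearest other summit of the 6000 was a median of 1572 bp away, and 177 of the regions (30.3%) had one within 1000 bp.

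Genes with a top-ranked exonic region often had a promoter region of the 6000 as well. The 584 regions fell in exons of 529 genes, which is 2.65% of the 19973 protein-coding genes. A promoter window with another region of the 6000 was found for 267 of the 529 (50.5%), against 29.6% of genes holding lower-ranked exonic regions only (odds ratio 2.42, two-sided Fisher's exact test, p = 5.55e-20). Among all protein-coding genes the share was 16.9%. In the replicate 2 list alone the shares were 51.0%, against 30.6% (exact p = 2.84e-17), and in the replicate 1 list alone 23.6%, against 15.3% (exact p = 1.26e-10). It was the one comparison with lower-ranked exonic regions that passed in the same direction in both replicates' lists. Among the strongest, T28F4.4 had 3 promoter regions, the highest at signal 58.7, let-526 had 1 at 56.5 and F19B2.5 had 1 at 56.7, whereas F19H6.6, C34C12.2 and F17C11.22 had 0.

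Most host genes had 1 such region: 479 had 1, 38 had 2 and 12 had 3 or more. The reticulon gene ret-1 had 4, all in coding exon, with pooled signals from 18.6 to 24.9. Among those with 3 were genes for metabolic enzymes, icl-1, cts-1 and acs-2. The gene icl-1 encodes the glyoxylate cycle enzyme that joins isocitrate lyase and malate synthase; its regions, all coding, had pooled signals of 39.6, 34.1 and 20.5. In replicate 1 they had 13.4, 13.1 and 8.79, and in replicate 2 24.2, 19.99 and 36.5, so the order was not shared. The gene cts-1, for the citrate synthase that starts the tricarboxylic acid cycle, had 34.9 in 3' untranslated exon and 24.8 and 21.5 in coding exon, with no overlapping region in the replicate 1 list for any of the 3. The last 2 of these overlap the same replicate 2 region, so they are not separate calls there. The gene acs-2, for an acyl-CoA ligase of fatty acid oxidation, had 33.4, 28.8 and 20.5, all in coding exon.

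The remaining genes with 3 regions that were named by the rule have other roles. F26F12.3 had its 3 in 5' untranslated, 3' untranslated and coding exon, at 69.5, 36.9 and 18.8. The gene shn-1, for the Shank scaffold protein, had 34.1, 29.2 and 21.9, all coding and all seen in the replicate 2 list alone. The gene ncr-1, homolog of the NPC1 cholesterol transporter, had 32.6, 20.1 and 20.2. The gene tir-1, for an NAD+ hydrolase of immune and neuronal signalling, had 29.98, 19.8 and 20.1, and mnk-1, a kinase, had 29.3, 27.2 and 27.1. C05D11.8 had 26.9, 24.8 and 21.97, all over 1 last exon, with the strongest of them at 14.8 in replicate 1 (rank 114) and 11.02 in replicate 2 (rank 11067). Of these 10 genes with 3 or more, 9 also had a promoter region of the 6000 and C05D11.8 had 0. Tests of function were not made.

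Lists of genes are set here beside the 2.65% of all protein-coding genes that had such a region. Families were listed by gene symbol, so members under other names are not counted: Y82E9BR.3, F44E5.1 and R04F11.2 are annotated as ATP synthase subunits, T28B11.1, fbxl-1, Y44A6C.1 and Y20C6A.1 as F-box proteins, F13D12.8 as holding a cuticle collagen domain and F07C3.16 as a serpentine receptor, and all hosted a region. W04B5.3, annotated as a galectin, and daf-12, annotated as a nuclear hormone receptor, also hosted a region and are not counted. The uncounted hosts named here are examples. Of 60 heat shock and chaperone genes 7 had one (11.7%): hsp-90 (signals 32.3 and 20.98), crt-1 (23.7 and 22.2), hsp-1 (22.8) and 4 others. Of 21 vacuolar ATPase genes 3 did (14.3%), namely vha-8, vha-13 and unc-32, and of 269 nuclear hormone receptors 13 did (4.83%), led by nhr-21 (38.3), nhr-35 (28.5) and nhr-14 (23.9). The vha-8 region had no overlap in the replicate 1 list, and the vha-13 region none in that of replicate 2. A promoter region of the 6000 was held by 50% of the chaperone genes and 52.4% of the vacuolar ATPase genes. It was held by 23.8% of the nuclear hormone receptors and 16.9% of all protein-coding genes. Of 44 respiratory chain and ATP synthase genes listed by symbol 3 hosted an exonic region (cyc-1, atp-2 and atp-1). Of 49 splicing factors 3 did (rsp-8, sfa-1 and rsp-6). Of 237 C-type lectins 3 hosted such a region (clec-221, clec-140 and clec-142), a share of 1.27%, under the 2.65%. Among intestine markers 2 of 23 had one (asp-3 and lys-1), among pharynx markers 2 of 24 (pha-4 and tni-4), and among ceh homeobox genes 2 of 63 (ceh-60 at 42.0 and ceh-19 at 18.6). Exact binomial intervals were wide for the small lists, for example 3.05 to 36.3% for the vacuolar ATPase.

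The other lists had 1 gene, none, or a share under the 2.65%. Cytosolic ribosomal protein genes gave 1 of 81 (rpl-3, at 22.8), although 68 of the 81 had a promoter region of the 6000. Genes with sr or str symbols, most of them chemoreceptors, gave 3 of 1353 (0.222%). Of these, srx-41 had the highest signal at 40.01, and srlf-7 is annotated not as a receptor but as an SXP/RAL-2 family protein. Cuticle collagens by symbol gave 1 of 194 (col-181), fbxa, fbxb and fbxc genes 1 of 315 (fbxa-14) and histones 1 of 59 (his-24). Tubulins and actins gave 1 of 17 (tbb-2), galectins by symbol 1 of 12 (lec-2) and spectrins and large cytoskeletal genes 1 of 18 (unc-44). There were 0 among 41 translation factors, 32 aminoacyl-tRNA synthetases, 31 proteasome genes, 25 body wall muscle genes, 24 neuronal genes, 24 germline genes, 10 basement membrane genes and 6 vitellogenins. For the short lists a count of 0 or 1 says little: the exact binomial interval reached 45.9% for the vitellogenins and 38.5% for the galectins. The family counts are descriptions and carry no test.

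At the pha-4 gene itself (chrV:20753052-20760317), which encodes the tagged protein, 26 regions of the 6000 lay within 40 kb. Of these, 2 were exonic outside promoter windows. The first was in coding exon 6 of 8 of pha-4 (chrV:20758250-20758589), with a pooled signal of 20.7 (rank 4745), no overlapping region in the replicate 1 list and 20.96 in the replicate 2 list (rank 3381). The second was in Y44A6C.1 (chrV:20715451-20715790), with 23.8 pooled, 6.55 in replicate 1 and 11.9 in replicate 2. Region lists do not tell reads of the chromosomal gene from those of the transgene. Within 40 kb of unc-119 there were 0 regions of the 6000, exonic or other. At the chromosome-wide density of these exonic regions, 0.50 would fall within 40 kb of pha-4 and 0.69 within 40 kb of unc-119. Counts this small say little about either locus.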

How the data were processed

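The authors deposited region lists from TF ChIP-seq on whole worms: per the deposited notes, 1 list per replicate and 1 from the pooled alignments, with peaks and background as input to a reproducibility test, and an optimal list that passed it. Each region carries the authors' signal value, whose scaling is not stated, and a −log10 q value that the authors deposited. Neither the aligner nor the peak caller is stated in the labels or notes. The ce11 lists were used; chromosome lengths match WBcel235, and exons and 5' ends came from Ensembl release 115, products from RefSeq.

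Summits were annotated and ranked with Python 3.11 code (pandas 2.3.3, numpy 2.4.6). Members, lists and motifs were chosen with earlier results of these data known. A region's exon type was coding first, then untranslated. Motifs and all 6-mers were counted within 100 bp of the summit. Tests used scipy 1.17.1: two-sided Fisher's exact tests with Benjamini-Hochberg adjustment within each family, called at an adjusted p of at most 0.05; a permutation test with 100000 resamples for GC content; and an exact McNemar test against a window 500 bp away. Logistic regressions used statsmodels 0.14.6. Lower-ranked host genes exclude those with a top-ranked region. The code of the 6-mer and GC tests was tried on these exonic regions with shuffled group labels and planted differences. The other tests were not tried in this way.

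The text names hosts of the 20 strongest regions, up to 10 hosts with 3 or more, up to 3 genes per list, regions within 40 kb of pha-4 and unc-119, and 2 regions on each side of rank 6000. The sequences around motifs, the regions named for their replicate ranks and other genes named beside small counts were chosen after their values were seen. Intervals are exact binomial at 95% and cover counting error only. Alternatives changed the promoter window, the number of top regions, the comparison group, the sequence window, counting per host gene and the replicate list.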

Additional observations from a re-analysis of the deposited data

How the results depend on the processing

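The results rest mainly on replicate 2, and the cause was not tested. Over the lists of replicate 1 alone and replicate 2 alone, the 3' untranslated difference between top-ranked and lower-ranked exonic regions ran from 0.97 to 11.5 percentage points and the 5' untranslated one from -0.48 to 3.88. The number of motifs that passed ran from 0 to 5, of 6-mers from 0 to 9 and of chromosomes from 0 to 1. The share differences ran from -1.06 to 7.04 percentage points for the forkhead consensus, -0.16 to 7.78 for CTTATC, -1.47 to 6.90 for AACAAA, -0.61 to 5.05 for AAAGAG and -3.43 to 1.99 for chromosome I, and that of GC content from -0.77 to 0.48. For the E-box they ran from -2.85 to 0.92 against promoter, -4.06 to 0.76 against intronic and -4.97 to 0.19 against intergenic regions.

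Of the 11 motifs 5 passed, but 3 did with members of q at most 0.05, 2 with a window of 50 bp and 1 in the paired test against the window 500 bp away. Of all 6-mers 6 passed, but 1 with the wider promoter window, 3 against the lower 50% of the list, and 10 both with q at most 0.05 and in the paired test, where TAAACA stood at -1.37 percentage points. Of the 6 chromosomes 1 passed, but 0 with the wider window and 0 with the top 3000 (1 unadjusted in each), and 2 against exonic base pairs. Against other classes 24 of 33 pairs passed, but 13 with the top 3000, where the GATA site difference from promoter regions was 0.55. The GC difference passed with the wider window (-0.80), and the share near non-coding 5' ends passed with the wider window (2.445), against the lower 50% (1.51) and with 1 region per host gene (1.66). Requiring at least 50% of a region to overlap left 55.3% of exonic regions overlapped in replicate 1 and 95.7% in replicate 2. The motifs that had not passed were left out of this comparison of settings after many of their values were seen to change sign. For the 6 motifs against lower-ranked exonic regions, 17 of 78 alternative values changed sign and 2 passed, none of them with a changed sign. For the 9 pairs of motif and class, 16 of 81 changed sign and 13 passed, 5 of them with the sign changed, all in a list of 1 replicate: in replicate 1 alone the homeodomain site was lower in exonic regions (-3.11 percentage points against promoter, -3.63 against intronic, -2.91 against intergenic) and the poly(A) signal was (-5.002 against intronic), and in replicate 2 alone the splice acceptor was higher (4.14 against promoter). Exon type and host gene differences kept direction and call in the alternatives run on the pooled list. For host genes, however, promoter regions were counted by the main window in every setting. With the narrower window (500 bp upstream to 100 bp downstream), a top-ranked exonic region could therefore count as its own host's promoter region. That setting is no check of the host gene difference. Replicates could not be paired across groups, since there is 1 group. Depth is unknown.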
